A study of Homo sapiens with 6 samples.

Results

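The genes described here are the 10 alpha- and beta-tubulin isotypes that CAL62 cells express, 4 alpha (TUBA1A, TUBA1B, TUBA1C and TUBA4A) and 6 beta (TUBB, TUBB2A, TUBB2B, TUBB3, TUBB4B and TUBB6). They were found by matching Ensembl identifiers of the deposited tables to these symbols, which gave 10 of the 39168 identifiers, and none of the 10 stood on more than 1 row. RNA sequencing compared 3 libraries of CAL62 cells given 50 nM erianin for 48 h with 3 libraries given an equal concentration of DMSO, the solvent, for 48 h. CAL62 is an established, genetically unmodified line from an anaplastic thyroid carcinoma (ATC), grown in serum-containing medium, and both groups were the same line. The design text speaks of 3 replicate experiments without saying whether cultures or days differed, so p-values measure the spread between these libraries, which may be in part technical. Reads on named genes ranged from 25776301 to 34107727 per library.

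Alpha- and beta-tubulin join into the dimer from which microtubules are built, the fibres that form the mitotic spindle and the tracks for transport inside the cell. Humans have several genes for each subunit, called isotypes, whose proteins are nearly alike in the body of the molecule and differ most in the acidic tail at the C-terminus. Cells also adjust tubulin mRNA to the amount of free dimer: when unpolymerized dimer is plentiful, ribosomes making tubulin are recognized by the first residues of the new chain, and the mRNA is degraded through TTC5, SCAPER and the CCR4-NOT complex. Erianin is a bibenzyl described as an inhibitor of tubulin polymerization, which makes the tubulin genes a readout of interest in these cells.

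The coding starts are shown first, because the first codons are the stretch that the mRNA surveillance reads through the nascent chain. Each line gives the first 24 coding bases of 1 transcript per gene from GENCODE 29 on GRCh38, with the first 4 codons in capitals.
TUBA1A: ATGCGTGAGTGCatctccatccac
TUBA1B: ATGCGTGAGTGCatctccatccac
TUBA1C: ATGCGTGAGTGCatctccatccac
TUBA4A: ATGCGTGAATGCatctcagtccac
TUBB: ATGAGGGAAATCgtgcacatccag
TUBB2A: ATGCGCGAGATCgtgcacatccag
TUBB2B: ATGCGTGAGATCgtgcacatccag
TUBB3: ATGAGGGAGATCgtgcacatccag
TUBB4B: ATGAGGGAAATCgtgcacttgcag
TUBB6: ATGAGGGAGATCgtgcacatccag
In all 10 members codons 2 and 3 encode arginine and glutamate, and codon 4 encodes cysteine in the 4 alpha and isoleucine in the 6 beta members. The codons themselves differed. Codon 2 was CGT in the 4 alpha members and TUBB2B, CGC in TUBB2A, and AGG in the other 4 beta members. Of the 4 gamma, delta and epsilon tubulins, 0 encoded this pair of residues at codons 2 and 3, as in TUBG1, the gamma-tubulin of centrosomes.
TUBG1: ATGCCGAGGGAAatcatcacccta

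Most of the beta isotypes separate at the other end of the coding sequence. The last 60 coding bases, stop codon included, are printed in lower case for the 6 beta members, since this stretch encodes the tail. TUBB2A and TUBB2B differ here only in the stop codon and in the alanine codon before it, so they encode the same tail.
TUBB: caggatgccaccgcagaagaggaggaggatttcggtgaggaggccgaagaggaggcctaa
TUBB2A: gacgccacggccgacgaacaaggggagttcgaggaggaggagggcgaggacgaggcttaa
TUBB2B: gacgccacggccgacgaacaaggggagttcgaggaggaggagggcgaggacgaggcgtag
TUBB3: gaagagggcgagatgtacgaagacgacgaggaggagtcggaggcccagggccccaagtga
TUBB4B: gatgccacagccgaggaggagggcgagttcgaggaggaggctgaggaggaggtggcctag
TUBB6: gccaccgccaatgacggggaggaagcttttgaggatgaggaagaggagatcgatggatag
Over the whole coding sequence TUBB2A and TUBB2B were identical at 98.1% of aligned positions, and TUBB matched the other beta members at 80.9% to 84.7%. TUBA1A and TUBA1B shared 97.2%, TUBA1B and TUBA1C 96.8%, and TUBA4A 84.4% to 85.7% with the other alpha members.

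This likeness limits which reads can be told apart. Among stretches of 100 bases in the chosen transcripts, 56.4% of TUBB2A and 46.2% of TUBB2B recur exactly in a gene elsewhere, first of all in each other, against 5.1% of TUBB and of TUBB3, 2.9% of TUBB4B and 0.0% of TUBB6 and TUBA4A. For TUBA1B the share was 37.2%, for TUBA1A 26.6% and for TUBA1C 11.5%. How reads with several placements were counted, and whether strand was used, is not given in the sources used here, so TUBB2A and TUBB2B, and likewise TUBA1A, TUBA1B and TUBA1C, may carry each other's reads. Genes on the opposite strand share 36.6% of the exonic bases of TUBA1B (AC011603.2, at 0 counts in these libraries), 20.3% of TUBB6 (AFG3L2) and 15.4% of TUBA4A (STK16). They share 16.0% of TUBB (AL662797.1, not analysed here), and TUBA1A and TUBA1C, on opposite strands, overlap each other in 14.3% of the exonic bases of TUBA1A. The scarce TUBB2B shares 7.9% of its exonic bases with PSMG4 on the opposite strand. PSMG4 had 6558 counts over all libraries, against 778 for TUBB2B. TUBB3 shares 35.8% with AC092143.1, a gene on the same strand that runs through it and was not analysed here. Of the 100-base stretches of the chosen transcripts, 89.0% in TUBB3 and 65.4% in TUBA1B also occur, on either strand, in a gene that overlaps the same locus, so most of the TUBB3 transcript cannot be told from its neighbour by sequence alone.

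The 3 libraries of DMSO were not alike. DMSO replicate 3 lay 62.9 and 64.1 from the other DMSO libraries in log2 CPM over all tested genes (Euclidean distance; CPM is the count scaled to the normalized library size), against 37.3 between DMSO replicates 1 and 2 and 28.2 to 29.01 among the erianin libraries. It entered every main comparison, and values without it are given for some genes and lists only. The other estimates include it and may depend on it. Of 5 epithelial markers KRT8, KRT18 and KRT19 averaged 1408, 890.0 and 479 CPM with DMSO and 1418, 771 and 414 CPM with erianin, EPCAM had 18.7 and 22.4 CPM, and CDH1 had 24 counts over all 6 libraries. The thyroid factor PAX8 averaged 676 and 428 CPM, lower with erianin (log2 fold change -0.66, adjusted p = 0.00403 from edgeR). Among markers of differentiated thyrocytes, TG and SLC5A5 had 19 and 12 counts over all 6 libraries and TSHR and NKX2-1 had 0. All 3 mesenchymal markers were lower in every erianin library than in every DMSO library, as were 19.3% of all tested genes. FN1 averaged 5817 and 3353 CPM (log2 fold change -0.80, edgeR adjusted p = 0.00761), VIM 1289 and 932 CPM (-0.47, edgeR adjusted p = 0.0300), and CDH2 54.3 and 46.9 CPM (-0.21, edgeR adjusted p = 0.271). Markers of leukocytes and macrophages (PTPRC and CD68) had 10 and 24 counts in all, and the endothelial PECAM1 and VWF 23 and 53. COL1A1 and MYH11 had 5973 and 173 counts. Of these 6 markers of other cell types 3 could be tested and 0 were DEGs, against 8.73% of all tested genes. VWF was higher and COL1A1 lower without overlap (log2 fold changes 1.51 and -0.32, edgeR adjusted p = 0.0621 and 0.0613), against 19.5% and 19.3% of all tested genes. MYH11 had 0.13, with groups that overlapped. Whether the differences in PAX8 and the mesenchymal markers bear on the tubulin values was not tested. In bulk RNA, fewer cells of a kind and less RNA per cell cannot be told apart.

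To compare tubulin mRNA between the groups, the quasi-likelihood test of edgeR was applied to the raw counts of all 12821 genes that passed the filter on low counts, among them all 10 members, with Benjamini-Hochberg adjustment; SE stands for the standard error. Genes past both an adjusted p of 0.05 and a log2 fold change (FC) of 0.5 in size were called differentially expressed (DEGs). The abundant isotypes were lower with erianin and the less abundant beta isotypes TUBB2A and TUBB3 were higher. TUBB was downregulated, TUBB2A and TUBB3 were upregulated, and 8.73% of all tested genes were DEGs, 5.37% up and 3.36% down. That share moved with the libraries and the scaling: it was 17.5% (11.4% up, 6.11% down) without DMSO replicate 3, 2.39% to 2.53% without 1 erianin library, 5.20% up and 5.23% down after removal of the trend on GC content, and 9.41% up and 0.805% down on log2(TPM + 1) values with limma. By the adjusted p alone 2 members were higher and 5 lower, against 7.22% and 7.69% of all tested genes. The CPM of the groups did not overlap for 9 members, 3 higher and 6 lower with erianin, as was so for 38.7% of all tested genes. The median log2 FC of the members was -0.30, and that of all tested genes 0.0014.

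**Figure D1:**
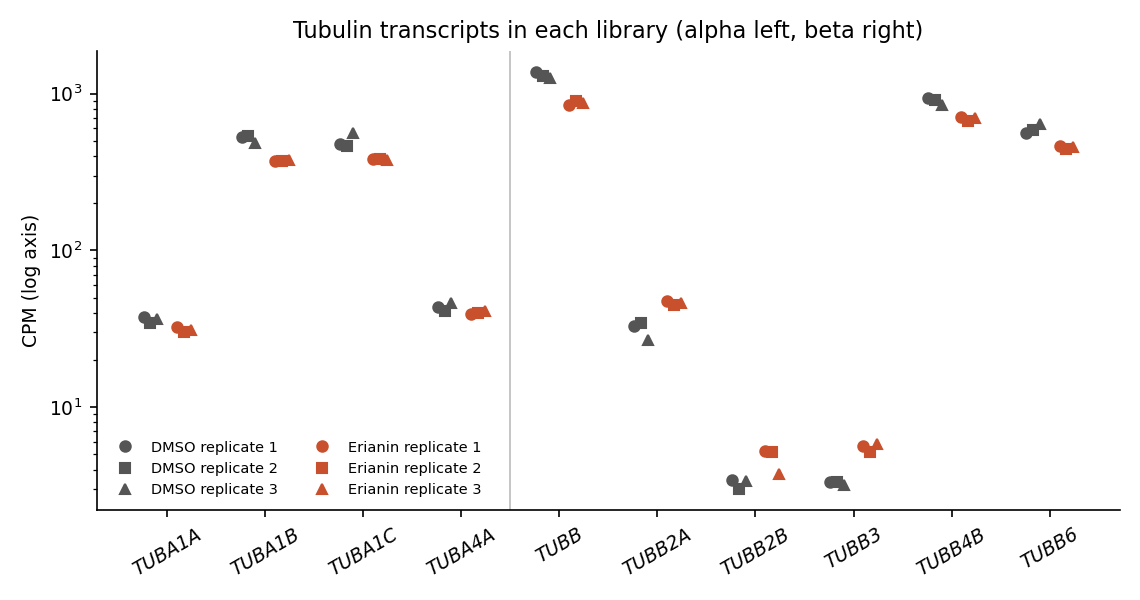
CPM of each tubulin isotype on a log axis, 1 point per library, DMSO in grey and erianin in orange, the marker shape giving the replicate number. Erianin libraries lie below all DMSO libraries for TUBB, TUBB4B, TUBB6, TUBA1A, TUBA1B and TUBA1C, above them for TUBB2A, TUBB2B and TUBB3, and for TUBA4A 2 of 3 erianin libraries lie below all DMSO libraries while the third overlaps them.

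TUBB, the main beta isotype of dividing cells (chr6:30720201-30725426 in GENCODE 29, GRCh38), was counted at 1379, 1296 and 1249 CPM in DMSO replicates 1, 2 and 3 and at 850.1, 891 and 873 CPM in the erianin replicates. Every erianin library was below every DMSO library, and the group means were 1308 ± 66.1 and 871 ± 20.3 CPM (SD, n = 3 each). The log2 FC was -0.59 (SE 0.07, adjusted p = 0.00404 from edgeR), a change of -33.4%. TUBB remained a DEG with any 1 library left out, with an adjusted p of at most 0.0420 from edgeR. On log2(TPM + 1) values with limma it stood at -0.39 (adjusted p = 0.0349), short of the fold-change threshold, on a scale where the median gene was shifted by 0.18.

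TUBB4B (chr9:137241213-137243707), a beta isotype found in most cell types and in cilia, stood at 932, 910.5 and 848 CPM with DMSO and at 704, 664 and 700.3 CPM with erianin. Its highest erianin library was below its lowest DMSO library. The log2 FC was -0.38 (SE 0.07, edgeR adjusted p = 0.0147), under the fold-change threshold. TUBB6 (chr18:12307669-12344320), a beta isotype of wide expression, stood at 564, 587 and 635 CPM with DMSO and at 465, 443 and 458 CPM with erianin. It had a log2 FC of -0.39 (SE 0.07, edgeR adjusted p = 0.0147), with DMSO replicate 3 the highest of the 6 libraries. The adjusted p of TUBB4B was at least 0.0518 without each library other than DMSO replicate 3 and 9.2e-11 without that one, while TUBB6 had 0.0734, 0.0901 and 0.0871 without erianin replicates 1, 2 and 3 (edgeR).

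TUBB2A (chr6:3153669-3157526), a beta isotype abundant in neurons, stood at 32.9, 34.2 and 26.9 CPM with DMSO and at 47.7, 44.8 and 46.3 CPM with erianin. The groups did not overlap, and DMSO replicate 3 was the lowest library. The means were 31.3 ± 3.92 and 46.3 ± 1.44 CPM (SD, n = 3 each), a log2 FC of 0.56 (SE 0.11, adjusted p = 0.0168 from edgeR), or 1.48-fold. Without DMSO replicate 3 the TUBB2A log2 FC was 0.46, under the threshold, with an adjusted p of 3.4e-07 from edgeR. Without erianin replicates 1, 2 and 3 in turn its adjusted p was 0.0911, 0.0774 and 0.0883 (edgeR).

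TUBB3 (chr16:89921392-89938761), the class III isotype best known as a neuronal marker and also found in many carcinomas, was scarce. It had 81, 108 and 100 counts with DMSO and 192, 181 and 203 with erianin, or 3.33, 3.33 and 3.21 CPM against 5.62, 5.18 and 5.80 CPM. The TUBB3 libraries fell into separate groups, at 3.29 ± 0.0669 and 5.53 ± 0.317 CPM (SD, n = 3 each). The log2 FC, 0.75 (SE 0.13, adjusted p = 0.0115 from edgeR), was the largest of the 10 and corresponded to 1.68-fold. With erianin replicates 1, 2 and 3 left out in turn the TUBB3 adjusted p was 0.0692, 0.0570 and 0.0735 (edgeR), and without DMSO replicate 3 TUBB3 was a DEG at 0.73.

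TUBB2B (chr6:3224261-3231730) neighbours TUBB2A on chromosome 6 and is another isotype of the developing nervous system. Its counts were 84, 97 and 105 with DMSO and 179, 182 and 131 with erianin, or 3.45, 2.99 and 3.37 CPM against 5.24, 5.21 and 3.74 CPM. Erianin replicate 3 lay just above the DMSO libraries, and the other two erianin libraries well above them. The log2 FC was 0.53 (SE 0.18, edgeR adjusted p = 0.0871), and TUBB2B became a DEG at 0.56 (edgeR adjusted p = 0.00957) without DMSO replicate 3. It also passed on log2(TPM + 1) values with limma, at 0.62 (adjusted p = 0.0256).

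Among the alpha isotypes, TUBA1B (chr12:49127782-49131397), the ubiquitous form, stood at 526, 533 and 483 CPM with DMSO and at 371, 369 and 376 CPM with erianin. The erianin libraries differed little among themselves and all lay below the DMSO libraries. The log2 FC was -0.47 (SE 0.07, edgeR adjusted p = 0.00710), short of the threshold, and -0.51 without DMSO replicate 3, where TUBA1B was a DEG. Its adjusted p was 0.0559, 0.0578 and 0.0568 without erianin replicates 1, 2 and 3 (edgeR).

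TUBA1C (chr12:49188736-49274603), also broadly expressed, stood at 477, 463 and 561 CPM with DMSO and at 382, 383 and 379 CPM with erianin. DMSO replicate 3 was the highest library, and all erianin libraries were lower than all DMSO libraries. The log2 FC was -0.39 (SE 0.09, edgeR adjusted p = 0.0259) and -0.30 without DMSO replicate 3. Its adjusted p was 0.0542 without DMSO replicate 1 and 0.109, 0.113 and 0.121 without erianin replicates 1, 2 and 3 (edgeR).

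TUBA1A (chr12:49184796-49189324), the alpha form of postmitotic neurons, stood at 37.6, 34.6 and 36.8 CPM with DMSO and at 32.2, 29.97 and 31.1 CPM with erianin. The groups were separate but close, with a log2 FC of -0.22 (SE 0.08, edgeR adjusted p = 0.121), and the adjusted p was 0.00831 without DMSO replicate 3. TUBA4A (chr2:219249711-219278170), an alpha isotype that is encoded without the terminal tyrosine, stood at 43.7, 41.1 and 46.1 CPM with DMSO and at 39.5, 39.9 and 41.1 CPM with erianin, and the groups overlapped. Its log2 FC was -0.12 (95% interval -0.31 to 0.08, edgeR adjusted p = 0.382), and its direction turned on log2(TPM + 1) values, where limma gave 0.0785. The other 9 members kept their direction in every fit run.

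**Figure D2:**
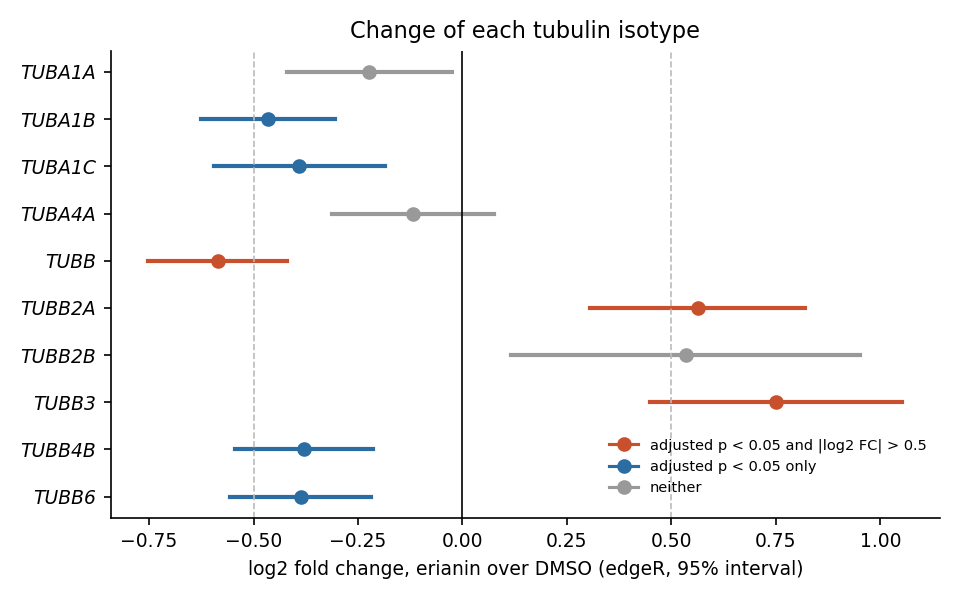
log2 FC of each isotype, erianin over DMSO, with its 95% interval from edgeR; orange marks DEGs, blue an adjusted p under 0.05 alone, grey neither, and dashed lines the fold-change threshold of 0.5. TUBB lies at -0.59, and TUBB2A and TUBB3 at 0.56 and 0.75, while the interval of TUBA4A includes 0.

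The direction of each member was compared with genes of like abundance, in 3 classes of mean CPM chosen after the values were seen. The members TUBB2B and TUBB3 belonged to the 4278 tested genes under 10 CPM, of which 10.0% were upregulated and 1.78% downregulated, with a median log2 FC of 0.16. TUBB2A, TUBA1A and TUBA4A fell among 6344 genes from 10 to 100 CPM, with 3.52% upregulated, 4.02% downregulated and a median of -0.02. The 5 abundant members were among 2199 genes at 100 CPM or more, with a median of -0.10. All 5 were lower at an adjusted p under 0.05 (edgeR), against 16.7% of that class, and 4.55% of the class were downregulated DEGs, as TUBB was.

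**Figure D3:**
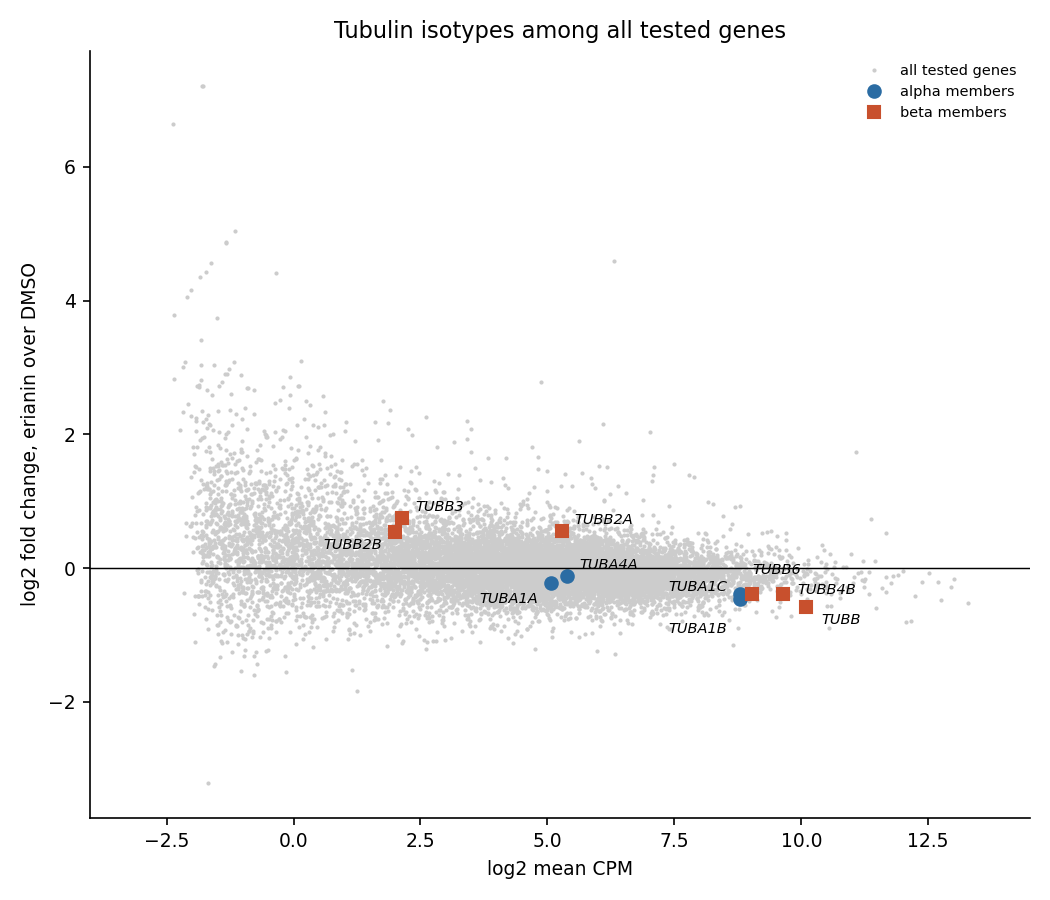
log2 FC against log2 mean CPM of the 12821 tested genes in grey, with alpha members as blue circles and beta members as orange squares. The 5 abundant isotypes sit at the right between -0.59 and -0.38, below the class median of -0.10, and TUBB2A, TUBB2B and TUBB3 sit above 0.5.

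Summed over the family, tubulin counts were a smaller part of the library with erianin. The 4 alpha members summed to 1084, 1071 and 1127 CPM with DMSO and 825, 823 and 827 CPM with erianin, a ratio of 0.754. The 6 beta members summed to 2915, 2834 and 2766 CPM with DMSO and 2077, 2053 and 2087 CPM with erianin, a ratio of 0.730. Together the members took 0.381% ± 0.0111 of the counts with DMSO and 0.299% ± 0.00207 with erianin (SD, n = 3 each). In TPM the difference was smaller, with ratios of 0.864 for alpha and 0.874 for beta. The beta members summed to 2632, 2581 and 2239.9 TPM with DMSO and 2191, 2097 and 2223 TPM with erianin, so that in TPM DMSO replicate 3 lay close to the erianin libraries. However, the TPM column of DMSO replicate 3 sums to 59.1% of its nominal total, against 72.6% to 78.3% in the other libraries. As a part of the counts the members took 0.393% in DMSO replicate 3, the highest of all libraries. Both sums were lower in every erianin library than in every DMSO library on either scale, and the CPM sums rest mostly on TUBB, TUBB4B, TUBB6, TUBA1B and TUBA1C.

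Levels of different isotypes can be compared only per length, and the length behind the deposited TPM was unusual. Over 8734 genes with at least 200 counts in DMSO replicate 1, the ratio of count to TPM followed the summed length of all GENCODE 29 transcripts of the gene within 0.1% for 95.1% of genes, and that of the longest transcript for 0.103%. TUBB3, with 15 annotated transcripts, was thus divided by 13988 bases in place of the 1769 bases of its chosen transcript, and TUBB2A, with 2 transcripts, by 2412 in place of 1595. The comparison of a gene with itself between groups is not touched by this, but the order of genes in TPM is. Levels were therefore also computed as CPM per kilobase of 1 transcript.

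On the scale of CPM per kilobase of 1 transcript, the DMSO levels ran from TUBB4B at 548 ± 26.5 and TUBB at 489.9 ± 24.8 through TUBA1B at 316 ± 16.6, TUBB6 at 289 ± 17.6 and TUBA1C at 167 ± 17.7 (SD, n = 3 each). TUBA4A, TUBB2A and TUBA1A followed at 20.2 ± 1.16, 19.6 ± 2.45 and 19.0 ± 0.80, and TUBB3 and TUBB2B were lowest at 1.86 ± 0.0378 and 1.62 ± 0.122. The libraries of TUBA1B and TUBB6 overlapped in level, as did those of TUBA4A and TUBB2A and of TUBB2A and TUBA1A, while the other neighbours in the order were separate. With erianin TUBB4B was at 421 ± 13.5, TUBB at 326 ± 7.59, TUBA1B at 229 ± 2.14, TUBB6 at 221 ± 5.27 and TUBA1C at 127 ± 0.738. TUBB2A stood next at 29.01 ± 0.90, above TUBA4A at 18.6 ± 0.389 and TUBA1A at 16.2 ± 0.592, with TUBB3 at 3.13 ± 0.179 and TUBB2B at 2.34 ± 0.425. No neighbours overlapped in the erianin libraries. The order of means was the same in both groups except that TUBB2A passed TUBA4A. On the TPM scale TUBB2A, divided by a short length, was already above TUBA4A with DMSO (76.8 against 24.5 TPM), and TUBB2B was above TUBB3.

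The composition of the beta pool was examined as each isotype's share of summed beta-tubulin TPM, which cancels the scaling of the library. TUBB2A took 3.13%, 3.34% and 2.76% of beta TPM in DMSO replicates 1, 2 and 3 and 6.08%, 5.90% and 5.91% in the erianin replicates. Its share was thus higher in each erianin library, by 2.89 percentage points in the means, against 1.13 points from raw counts and 1.44 from counts per length of 1 transcript, and TUBB2A counts relative to TUBB counts went from 2.39% ± 0.244 to 5.32% ± 0.289 (SD, n = 3 each). TUBB made up 28.7%, 27.7% and 28.0% with DMSO and 23.7%, 25.6% and 24.4% with erianin, lower in each erianin library. TUBB3 had 0.0545%, 0.0560% and 0.0568% against 0.124%, 0.118% and 0.128%, and TUBB2B 0.201%, 0.179% and 0.212% against 0.409%, 0.419% and 0.292%. These isotypes gained share without overlap between groups. TUBB4B had 57.9% ± 0.662 and 58.4% ± 0.848 and TUBB6 10.6% ± 1.06 and 10.6% ± 0.0903 of beta TPM (SD, n = 3 each), with overlapping libraries. As shares of raw counts TUBB4B had 31.6% and 33.3%, and there the groups did not overlap.

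In the alpha pool, TUBA4A made up 4.13%, 3.93% and 4.23% of alpha TPM with DMSO and 4.93%, 5.00% and 5.11% with erianin. TUBA1A took 3.81%, 3.54% and 3.61% against 4.30%, 4.01% and 4.14%. Both minor alpha isotypes were higher in share in every erianin library, although their CPM were not. TUBA1B had 50.0% ± 3.66 and 48.0% ± 0.294, and TUBA1C 42.2% ± 3.55 and 42.8% ± 0.393 (SD, n = 3 each), and in both the groups overlapped. DMSO replicate 3, with 45.9% TUBA1B and 46.3% TUBA1C, differed here from the other DMSO libraries, and without it 9 of the 10 shares did not overlap.

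Of the 10 shares, 6 did not overlap between groups in TPM (7 in raw counts), and for each of these the exact two-sided permutation test gave p = 0.1, the smallest that 3 against 3 libraries allow, so that none of the 10 tests could reach 0.05. Shares within a pool sum to 100% and are not independent. From raw counts divided by the length of 1 transcript the same 6 isotypes did not overlap, and each kept its direction: TUBB had 36.3% and 32.6% of the beta pool with DMSO and erianin, TUBB2A 1.45% and 2.89%, and TUBB3 0.138% and 0.312%. On that scale TUBB4B made up 40.6% and 42.0% and TUBB6 21.4% and 22.0%.

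**Figure D4:**
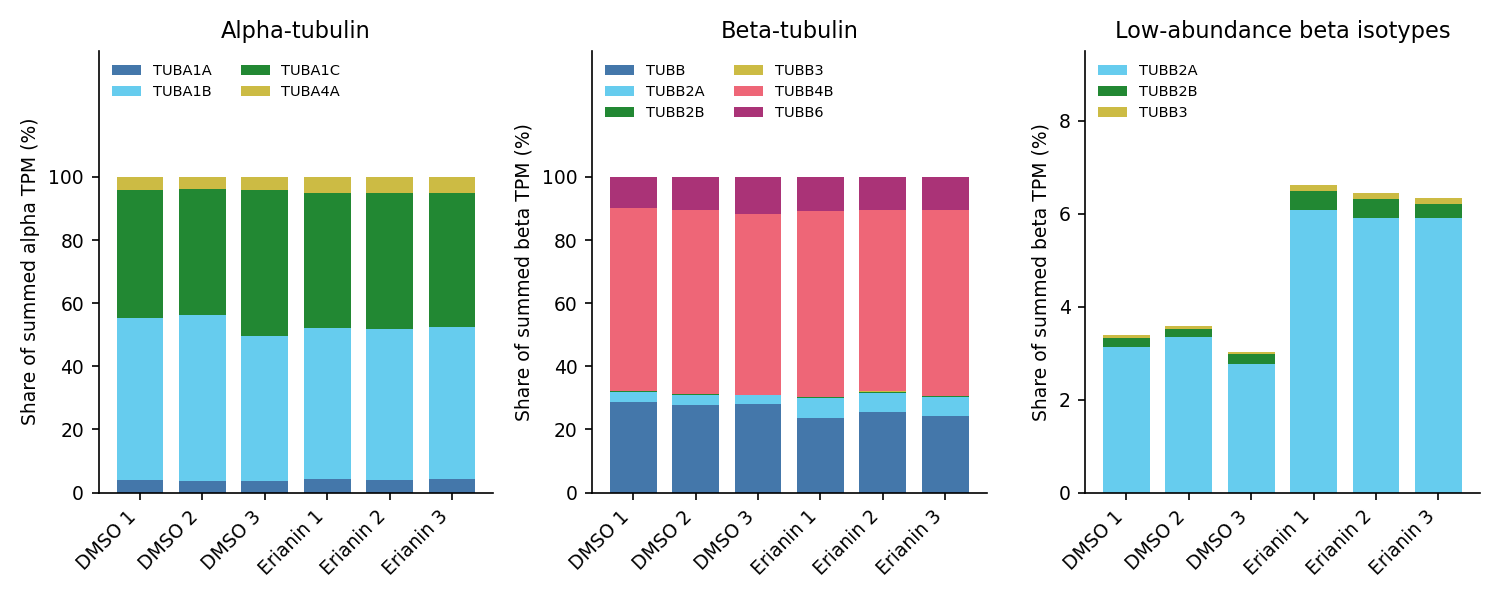
Share of each isotype in summed alpha TPM (left) and beta TPM (middle) of each library, in percent, with the 3 least abundant beta isotypes in CPM on their own axis (right). TUBB2A, TUBB2B and TUBB3 together make up 3.03% to 3.57% of beta TPM in the DMSO libraries and 6.33% to 6.62% in the erianin libraries.

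The promoters of the DEGs TUBB2A and TUBB3, both upregulated, are shown with that of TUBB2B, the close paralog of TUBB2A, which did not pass the test with all libraries. The 250 bases before each start come from the RefSeq table on GRCh38.p14, which matched all 10 members. Capitals mark the CCAAT box, the GC box GGGCGG, the TATA box TATAAA and the E-box CACGTG on either strand, overlapping matches included.
TUBB2A, chr6:3157545-3157794, minus strand: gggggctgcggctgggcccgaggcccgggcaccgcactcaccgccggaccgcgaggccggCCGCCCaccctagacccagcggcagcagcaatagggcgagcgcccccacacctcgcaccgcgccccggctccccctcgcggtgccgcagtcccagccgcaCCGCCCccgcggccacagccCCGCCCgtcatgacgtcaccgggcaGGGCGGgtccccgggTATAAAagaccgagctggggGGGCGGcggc
TUBB2B, chr6:3227654-3227903, minus strand: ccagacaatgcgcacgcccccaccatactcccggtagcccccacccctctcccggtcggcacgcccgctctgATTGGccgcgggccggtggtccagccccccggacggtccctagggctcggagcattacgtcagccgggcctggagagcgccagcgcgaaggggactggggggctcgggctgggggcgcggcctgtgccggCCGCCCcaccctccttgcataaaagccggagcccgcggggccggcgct
TUBB3, chr16:89923092-89923341, plus strand: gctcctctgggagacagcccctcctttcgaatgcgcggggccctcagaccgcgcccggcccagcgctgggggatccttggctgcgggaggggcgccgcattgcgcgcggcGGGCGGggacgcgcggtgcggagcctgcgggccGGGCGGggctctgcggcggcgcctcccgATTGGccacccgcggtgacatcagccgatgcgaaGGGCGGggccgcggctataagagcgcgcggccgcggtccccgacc
TUBB2A had 5 GC boxes and 1 TATA box, TUBB2B 1 CCAAT box and 1 GC box, and TUBB3 1 CCAAT box and 3 GC boxes. Among all 35116 promoters of the same length, 42.6% held GGGCGG, 32.0% CCAAT, 10.7% TATAAA and 6.3% CACGTG. TUBB, lower with erianin, had 1 CCAAT box and 1 GC box, like TUBB2B, and TUBB4B had 3 CCAAT boxes and no GC box. These letter matches describe the windows only.

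Other alpha- and beta-tubulin rows carried few reads. Of 58 rows whose symbols begin with TUBA or TUBB and that are not members, 17 had counts, and they held at most 0.0978% of the family's counts in a library. TUBB4A, a brain isotype, had 22, 27 and 27 counts with DMSO and 59, 42 and 31 with erianin, which overlapped in CPM (log2 FC 0.55, edgeR adjusted p = 0.255). TUBB1, the platelet isotype, had 18, 13 and 13 counts against 7, 4 and 13, and TUBA3D 4, 21 and 21 against 5, 3 and 11, with edgeR adjusted p-values of 0.168 and 0.161. The pseudogene TUBBP1 totalled 104 counts, TUBA8 9, TUBA3E 6 and TUBAL3 2.

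The tubulins that are not part of the microtubule wall were examined next. None of the 4 gamma, delta and epsilon genes was a DEG, against 8.73% of all tested genes. TUBG1 stood at 109 ± 17.3 CPM with DMSO and 93.0 ± 2.02 with erianin (SD, n = 3 each), with a log2 FC of -0.23 (edgeR adjusted p = 0.217). TUBG2 had -0.12, TUBD1 -0.01 and TUBE1 -0.39 (edgeR adjusted p = 0.389, 0.983 and 0.121), the last with groups that did not overlap. Of the 8 tested genes of the gamma-tubulin ring complex, which nucleates microtubules, 0 were DEGs and 1, TUBGCP2, was lower by adjusted p alone, at 154 against 110 CPM (log2 FC -0.48, edgeR adjusted p = 0.00666). MZT2A and TUBGCP6, the next most abundant, had log2 FCs of -0.24 and -0.25. Without DMSO replicate 3, 0 of the 4 and 2 of the 8 genes were DEGs, both lower, against 17.5% of all tested genes.

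Newly made tubulin is folded by prefoldin and the CCT chaperonin and then joined into dimers by the tubulin cofactors. Of 14 tested prefoldin and CCT genes 11 were higher and 3 lower with erianin in the edgeR estimate, with a median log2 FC of 0.11, and 1 was a DEG, against 8.73% of all tested genes, of which 6446 were higher and 6375 lower. VBP1, a prefoldin subunit, was upregulated, with 26.3 ± 1.72 CPM under DMSO and 37.8 ± 1.46 CPM under erianin (SD, n = 3 each) and a log2 FC of 0.52 (edgeR adjusted p = 0.0120). Without erianin replicates 1, 2 and 3 the VBP1 adjusted p was 0.0641, 0.0726 and 0.0807, and removal of the trend on GC content gave 0.33 (edgeR adjusted p = 0.0687). The abundant CCT7, CCT3 and CCT5 had log2 FCs of 0.04, 0.08 and 0.08. CCT7 stood at 929, 902 and 699 CPM in DMSO replicates 1, 2 and 3 and at 905, 839 and 864 CPM with erianin. CCT3 had 474, 471 and 370 CPM against 465, 458 and 464 CPM. DMSO replicate 3 was thus the lowest library for both, while for CCT5 it was the highest DMSO library. The 11 higher and 3 lower genes were counted with all libraries, DMSO replicate 3 included. TCP1, also of this list, was higher by adjusted p alone, at 156 against 209 CPM (log2 FC 0.42, edgeR adjusted p = 0.0114). In CPM 7 of the 14 genes were higher without overlap and 0 lower, against 19.5% and 19.3% of all tested genes. Without DMSO replicate 3, VBP1 was the 1 DEG of the 14, against 17.5% of all tested genes.

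Of 6 tested cofactors TBCD, which acts on the beta subunit, was downregulated, with 95.6 ± 12.4 CPM under DMSO and 57.2 ± 1.85 CPM under erianin (SD, n = 3 each) and a log2 FC of -0.74 (edgeR adjusted p = 0.00664). Its adjusted p was 0.0521 and 0.0524 without erianin replicates 1 and 2 (edgeR). ARL2, the GTPase that works with TBCD, was lower by adjusted p alone, at -0.46 (edgeR adjusted p = 0.0341), and TBCB, an alpha-tubulin cofactor, had 0.02. The median of the 6 was -0.16, and 1 of 6 was a DEG against 8.73% of all tested genes. Without DMSO replicate 3, TBCD and ARL2 were DEGs, both lower, against 17.5%.

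Of 12 genes of tubulin mRNA surveillance 11 could be tested, and 0 were DEGs with all libraries or without DMSO replicate 3, where the share over all tested genes was 8.73% and 17.5%. With all libraries there were 6 higher and 5 lower in the estimate, a median of 0.15 and 1, CNOT8, higher by adjusted p alone. TTC5, which reads the nascent chain, stood at 24.4 ± 5.73 CPM with DMSO and 28.2 ± 1.31 with erianin, and SCAPER at 6.08 ± 1.80 and 7.09 ± 1.07 CPM (SD, n = 3 each), with log2 FCs of 0.21 and 0.22 (edgeR adjusted p = 0.463 and 0.56). The 3 most abundant, CNOT1, CNOT3 and CNOT11, had -0.22, -0.25 and -0.20. DMSO replicate 3 was the lowest library for TTC5, at 17.8 CPM, and the highest for CNOT1, CNOT3 and CNOT11, at 392, 161 and 89.8 CPM. CNOT9 was listed at 0 counts in every library.

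Enzymes that modify assembled or free tubulin numbered 19 tested of 22, of which 7 were higher and 12 lower, with a median of -0.18, and 2 were DEGs, both lower, against 8.73% of all tested genes. Without DMSO replicate 3, 7 of the 19 were DEGs, against 17.5% of all tested genes. Of these, 3 were higher (SVBP, TTLL7 and VASH2) and 4 lower (HDAC6, TTLL1, TTLL11 and VASH1). VASH1, which removes the terminal tyrosine of alpha-tubulin, was downregulated, with 27.4 ± 3.67 CPM under DMSO and 13.8 ± 1.36 CPM under erianin (SD, n = 3 each) and a log2 FC of -0.99 (edgeR adjusted p = 0.00565), and remained a DEG with any 1 library left out. TTLL1, a polyglutamylase, was downregulated from 7.76 to 4.65 CPM (log2 FC -0.74, edgeR adjusted p = 0.0240). Its adjusted p was 0.0528 without DMSO replicate 2 and 0.108, 0.102 and 0.0892 without erianin replicates 1, 2 and 3 (edgeR). TTL, which adds the tyrosine back, had a log2 FC of 0.02, the abundant TTLL12 -0.40 (edgeR adjusted p = 0.0110) and TTLL5 -0.21. TTLL5 stood at 82.6, 86.3 and 144 CPM in DMSO replicates 1, 2 and 3 and at 96.7, 89.1 and 85.4 CPM with erianin. With all libraries the scarce SVBP and VASH2 were higher in the estimate, at 0.92 and 0.36 (edgeR adjusted p = 0.105 and 0.522). They had 467 and 213 counts in all.

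**Figure D5:**
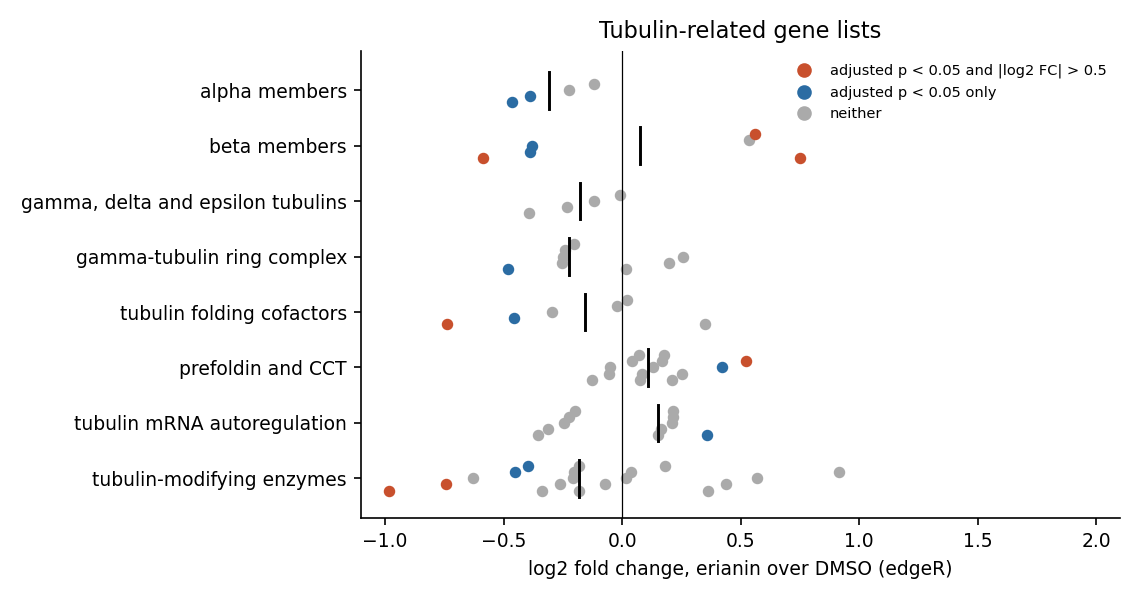
log2 FC of each tested gene in the tubulin-related lists, erianin over DMSO, 1 point per gene spread vertically only for legibility, orange for DEGs, blue for an adjusted p under 0.05 alone, with a black bar at each list's median. The alpha members all lie below 0 and the beta members on both sides, and the lists of related genes hold 4 DEGs: VBP1, TBCD, VASH1 and TTLL1.

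The genes most like an abundant tubulin over the 6 libraries were found among 8396 tested genes averaging at least 10 CPM, by the root mean square difference of log2 CPM after centring. INTS11 (0.0112), EHD4 (0.0167) and BRF1 (0.0210) were nearest to TUBA1B, and ANXA11 (0.0192), PFKP (0.0256) and NEK6 (0.0289) to TUBB4B.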

How the data were processed

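Total RNA of CAL62 cells was sequenced on the BGISEQ-500 platform. The authors deposited raw counts per gene and TPM of the same libraries. The submitters' processing notes name fastp 0.23.2, STAR 2.7.10, featureCounts 2.0.1 and StringTie 2.2.1 with GRCh38 (hg38), without their roles. The annotation, strand setting, read length and handling of multiply placed reads are not given in the sources used here. The deposited TPM columns sum to 59.1% to 78.3% of their nominal total, lowest in DMSO replicate 3, so that between DMSO and erianin the median gene shifts by 0.18 on the log2(TPM + 1) scale. Rows without a gene identifier (26480 of 65807, 0.00385% to 0.00515% of counts) entered neither library sizes nor tests. The study's own comparison columns were not used.

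Counts were tested with edgeR 4.0.16 (TMM, filterByExpr, glmQLFit and glmQLFTest) in R 4.3.3 over all genes, with no replicate term. The study names DESeq2, which was run as an alternative (1.42.0), as were limma 3.58.1 on log2(TPM + 1) for genes averaging 1 TPM or more, other scalings, filters, a GC offset (loess, span 0.5), a replicate block and each library left out. The share from 1 transcript length was added after seeing the data. Shares were compared by exact permutation. Standard errors come from the quasi-likelihood F statistic. The steps were tested on simulated data. The members, lists and tests were chosen with earlier results of these data known. Named genes were the members, each list's DEGs and 3 most abundant genes, non-member tubulin rows, and the 3 genes most like TUBA1B and TUBB4B. Some further list genes are named for their adjusted p or as DEGs without DMSO replicate 3. TUBB8, TUBGCP5 and TBCE matched no row. Sequences were read from GENCODE 29 transcripts and RefSeq promoters with Python 3.11.15 and Biopython 1.88, and figures drawn with matplotlib 3.10.9.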

Additional observations from a re-analysis of the deposited data

How the results depend on the processing

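With the 6 libraries left out in turn, between 0 and 2 members were upregulated and between 1 and 2 downregulated. In the other tubulin lists between 0 and 4 genes were upregulated and between 1 and 8 downregulated. Between 6 and 9 isotype shares did not overlap. The percentage of DEGs among all tested genes moved in the same fits. It was 17.5% without DMSO replicate 3, where the list counts of 4 and 8 arose. Without 1 erianin library it was 2.39% to 2.53%, and there 0 members and 0 list genes were upregulated. The ranges thus cannot be read as particular to tubulin genes. Without DMSO replicate 3 the coefficient of biological variation was 0.0421 in place of 0.139. On TPM with limma 0 members were downregulated under both pseudocounts and without the filter, against 0.487% to 0.943% of all tested genes. In the other lists 3 genes were upregulated and 1 downregulated on log2(TPM + 1), against 9.41% and 0.805% of all tested genes. TUBB was at -0.39, and TUBA4A turned to 0.0785, 0.0813 (pseudocount 0.1) and 0.0785 (no filter), under the shift of the median gene of 0.12 to 0.20. The other 9 members kept their direction in every fit run. DESeq2 called 2 genes of the other lists upregulated, against 6.65% of all tested genes. The adjusted p alone gave 5 lower members, against 7.69% of all tested genes. With the replicate number as a block 1 member (TUBB2A) was upregulated, at an edgeR adjusted p of 0.04998, just under the cutoff, and TUBB3 had 0.0513. In that fit 0 genes of the other lists were upregulated, against 3.0% of all tested genes. By replicate number, 6 isotype shares moved the same way in all 3 pairs (exact sign-flip p = 0.25, the smallest possible). Deviations of same-numbered libraries correlated at 0.00138, 0.0253 and -0.0329, and 2 of 6 libraries matched their own number best, so the numbers were not taken to pair samples. Shares of raw counts gave 1.13, 0.151 and 1.67 percentage points for TUBB2A, TUBB3 and TUBB4B, and 1 transcript length 1.44, 0.174 and 1.41. The counts of TUBB2B and TUBB3, 81 to 203 per library, limit their precision.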
